A study of Mus musculus with 4 samples.

Results

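Oxidative phosphorylation (OXPHOS) is run by 5 protein complexes of the inner mitochondrial membrane. The 43 nuclear genes described here encode subunits of these complexes together with the electron carrier cytochrome c. They were chosen by name, 15 for complex I, 4 for complex II, 7 for complex III with cytochrome c, 10 for complex IV and 7 for complex V, and each symbol matched 1 of the 27179 NCBI gene identifiers of the count table. RNA had been sequenced from group 2 innate lymphoid cells (ILC2s), tissue lymphocytes that release type 2 cytokines, taken by cell sorting from C57BL/6J colon. The high-fiber group and the control diet group held 2 mice each, with 1 library per mouse. All mice were of the same strain, and the labels name no further allele or agent. They give neither the sort gates, the kind of fiber, the time on the diet nor the age of the mice. Libraries of both diets were made with an ultra-low-input SMARTer kit, in which polyadenylated RNA is reverse transcribed and the cDNA amplified by PCR.

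Complexes I and II take electrons from NADH and from succinate and hand them to ubiquinone. Complex III passes them on to cytochrome c, and complex IV gives them to oxygen. Complexes I, III and IV pump protons as they do so, and complex V, the ATP synthase, lets the protons flow back to make ATP. All but complex II also hold subunits encoded by mitochondrial DNA, so their assembly draws on 2 genomes. Resting lymphocytes are known to make much of their ATP in this way.

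The libraries held 29263068 and 20750263 counts on the high-fiber diet, against 30406730 and 20253987 counts on the control diet. Levels are given as CPM, the counts divided by the TMM-scaled library total, so that libraries of unequal depth can be compared. High-fiber library 2 stood apart from the others on the first principal component of all tested genes, at 116, while high-fiber library 1 lay at -10.0 and the control libraries at -59.3 and -46.7. The 12 ILC2 markers were present in all libraries, with Gata3 between 766 and 1615 CPM. Lists of other cell types differed between libraries, and their part in the results below was not tested. The summed B and plasma cell markers stood at 342 and 1226 CPM on the high-fiber diet, against 156 and 39.1 CPM on the control diet, nearly all of it Igkc, Igha, Jchain and Cd79b. Sums were 253 and 312 against 179.6 and 213 CPM for T cell markers, mostly Cd3g, with the other T cell markers at 15.9 CPM or less and Cd8a, Cd8b1 and Cd5 at 0 counts. Cd3g alone set that sum: its log2 fold change was 0.77, while the other 4 tested T cell markers were negative (-0.52 for Cd3d, -0.85 for Trac, -1.62 for Cd3e and -2.83 for Themis). The DESeq2 adjusted p of Themis was 0.00976, and its edgeR adjusted p 0.447. They were 298 and 319 against 119.9 and 256 CPM for myeloid markers, with Itgax at 0. For dividing cells they were 181 and 209 against 162 and 167 CPM. Tyms stood at 49.0 and 52.6 against 21.3 and 13.0 CPM (DESeq2 adjusted p = 0.0260, edgeR adjusted p = 0.447). Mki67 stood at 0.17 and 15.6 against 0.13 and 2.19 CPM. Of the 9 tested dividing-cell markers, 6 had a positive log2 fold change and 3 a negative one. The lowest was -1.08 for Ccna2, at 0.10 and 2.90 against 0 and 6.38 CPM. For these 4 lists both high-fiber sums lay above both control sums, for T cells through Cd3g. Gene by gene, all 5 tested B and plasma cell markers lay this way. So did 1 of 5 tested T cell markers (Cd3g), 1 of 7 myeloid markers (Apoe) and 1 of 9 dividing-cell markers (Tyms). Of the rest, 2 T cell markers lay below both controls and the others overlapped. Of all tested genes, 18.5% lay above both controls. ILC3 markers summed to 1203 and 1209 against 1299.8 and 1419.6 CPM, with Il22, Il23r and Ccr6 at 0. Of the 9 epithelial markers, Epcam reached 36.9 CPM and the other 8 at most 1.21 CPM. Stromal and endothelial markers beside Pecam1 (at most 62.8 CPM) reached 1.66 CPM at most, mast cell and granulocyte markers 1.96 CPM and erythroid markers 0.52 CPM.

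Levels were compared between genes as CPM per kilobase of exon, and each is a mean ± SD over the 4 libraries. The 43 members spanned 3.36 to 810.2 CPM per kilobase, with a median of 124. The ranking by mean was led by Cox6a1 (810.2 ± 177), Atp5b (771 ± 144), Cox4i1 (721 ± 102) and Ndufa1 (587 ± 151). Within each of the 4 libraries Cox6a1 lay above Cox4i1, and Cox4i1 above Ndufa1. The place of Atp5b is not set. It was the lowest of these genes in high-fiber library 2 (613, against 1064 for Cox6a1) and the highest of them in the other libraries. Cycs (3.36 ± 0.929), Sdhd (3.65 ± 0.341) and Cox7c (6.45 ± 1.03) stood at the bottom, below Atp5l (19.3 ± 5.17), Cox7a2 (20.3 ± 4.02) and Ndufa8 (22.2 ± 4.6). Subunits of the same complex therefore differed widely in transcript level, from 26.4-fold in complex I (Ndufa1 over Ndufa8) and 40.0-fold in complex V (Atp5b over Atp5l) to 68.0-fold in complex II (Sdhb over Sdhd), 126-fold in complex IV (Cox6a1 over Cox7c) and 133-fold in complex III with cytochrome c (Uqcrc1 over Cycs). The complex medians were closer together, at 119 for complex I, 77.0 for complex II, 105 for complex III with cytochrome c, 214 for complex IV and 215 CPM per kilobase for complex V.

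**Figure D1:**
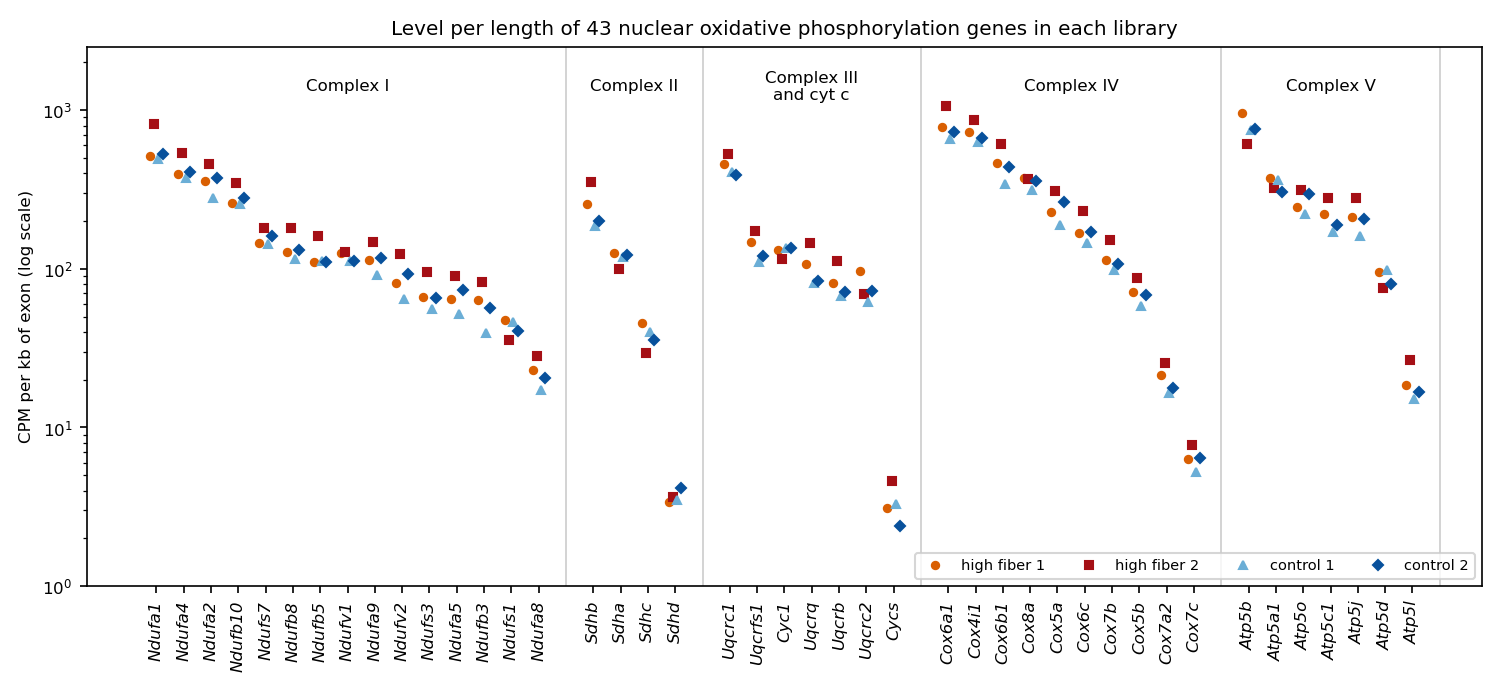
Level of each gene in CPM per kilobase of exon (log axis), with 1 point per library, grouped by complex and ordered by mean level. The spread between genes of a group, up to 133-fold where cytochrome c is set with complex III, is far wider than the spread of a gene between its 4 libraries.

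Not all of these levels are equally certain. A GENCODE search found that 12 members share at least 200 bases at 95% identity or more with the transcript of another gene, mostly pseudogenes, among them Atp5l with 9 such genes and Cycs with 4. Their median level was 79.2 CPM per kilobase, against 139 for the other 31. How reads that match several genes were counted is not given in the sources used here. Whether these levels are too low was not tested. Exons of 13 members overlap an exon of a neighbour, as Atp5j overlaps Gabpa on the other strand by 123 bases, and without a stated strand setting such reads cannot be told apart.

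In many cell types nuclear OXPHOS genes are controlled by nuclear respiratory factor 1 (NRF1), by ETS family factors such as GABPA and by YY1. RefSeq promoter windows of GRCm38.p6, from 250 bases before to 50 after a start site, were at hand for 33 members. A core of the NRF1 motif, GCGCA followed by any base and GCGC, stood in 8 of the 33 on either strand (24.2%), against 7.17% of 17492 protein-coding genes. The ETS letters CCGGAAG stood in 8 members (24.2%, against 12.9%), and the YY1 letters AAGATGGC in 4 (12.1%, against 3.57%). Matches to different motifs overlapped in 0 of the member windows. These are matches of letters, not binding sites. Members with the NRF1 letters were Ndufa5, Ndufa8, Sdha, Sdhd, Uqcrc1, Cox6a1, Atp5c1 and Atp5o. Their median log2 fold change between diets was 0.31, against 0.32 for the 25 members without them. It was 0.42 with the ETS letters, against 0.32 in 25 members without, and 0.32 with the YY1 letters, against 0.32 in 29 without. Median levels were 166 CPM per kilobase with the NRF1 letters and 124 without, 232 with the ETS letters and 119 without, and 149 with the YY1 letters and 119 without. These differences were not tested. The 250 bases before the start are shown for Sdha and Cox6a1, the members with the most NRF1 matches there, and for Sdhd, the low anchor subunit of the same complex as Sdha. Capitals mark the NRF1 letters. Each sequence runs 5′ to 3′ on the minus strand, and the regions are chr13:74350241-74350490 for Sdha, chr5:115348959-115349208 for Cox6a1 and chr9:50603850-50604099 for Sdhd.
Sdha: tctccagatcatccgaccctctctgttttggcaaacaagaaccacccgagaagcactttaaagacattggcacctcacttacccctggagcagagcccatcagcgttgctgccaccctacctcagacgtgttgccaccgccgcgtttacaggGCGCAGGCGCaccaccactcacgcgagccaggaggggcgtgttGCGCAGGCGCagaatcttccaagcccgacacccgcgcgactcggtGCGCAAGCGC
Cox6a1: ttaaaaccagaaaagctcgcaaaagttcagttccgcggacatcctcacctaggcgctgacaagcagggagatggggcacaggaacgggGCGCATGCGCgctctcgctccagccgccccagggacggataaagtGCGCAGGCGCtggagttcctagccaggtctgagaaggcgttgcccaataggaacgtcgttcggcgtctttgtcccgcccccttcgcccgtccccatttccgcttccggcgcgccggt
Sdhd: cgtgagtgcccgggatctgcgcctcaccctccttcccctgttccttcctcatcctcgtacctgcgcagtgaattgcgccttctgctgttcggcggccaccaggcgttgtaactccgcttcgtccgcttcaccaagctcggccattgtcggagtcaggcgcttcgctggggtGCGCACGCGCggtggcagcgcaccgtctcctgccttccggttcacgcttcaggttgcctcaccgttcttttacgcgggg
Sdha held 3 matches, Cox6a1 held 2 and Sdhd held 1. By mean level over the 4 libraries, Cox6a1 was the highest of the 43 members and Sdhd the second lowest, at 810.2 and 3.65 CPM per kilobase. Atp5b lay above Cox6a1 in all libraries but high-fiber library 2.

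The diet comparison asked whether these genes differ in ILC2s between the diets. Most members had somewhat higher levels on the high-fiber diet, but none passed the test. The log2 fold change, high fiber over control, was positive for 37 of 43 members and negative for 6, where 48.8% of the 11841 tested genes were positive. Its median was 0.32 over the members and -0.016 over all tested genes. In the quasi-likelihood test of edgeR, adjusted by Benjamini-Hochberg over the tested genes, 0 members were called higher (background 0.0338%) and 0 lower (background 0%), with a smallest adjusted p of 0.509. At an unadjusted p under 0.05, 2 members were higher (Sdhb and Uqcrq, background 4.7%) and 0 lower (background 4.1%). DESeq2 called 0 members (background 1.26% higher and 0.621% lower, smallest adjusted p = 0.314; unadjusted p was under 0.05 for 3, all higher), as did limma-voom (background 0%, smallest adjusted p = 0.716). All 43 passed the filter on low counts. The 95% interval of the log2 fold change lay between -1 and 1, within a 2-fold change either way, for 26 members, and for 22.04% of all tested genes. With 2 mice per diet an exact two-sided permutation test of a single value cannot go below p = 0.333. In bulk RNA, fewer cells with a transcript and less of it per cell cannot be told apart.

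Both high-fiber libraries lay above both control libraries for 19 members (18.5% of all tested genes) and below them for 1, Cyc1 (19.6%), so that the groups were apart for 20 (38.2% of all tested genes) and overlapped for 23. High-fiber library 2 was the highest of the 4 for 33 members, where it was the highest for 28.3% of all tested genes. Among 1902 tested genes of like length, those between the lower and upper quartile of the members' exon lengths, it was the highest for 832, and 1093 (57.5%) had a positive log2 fold change with a median of 0.083. Of these 1902 genes, both high-fiber libraries lay above both control libraries for 461 and below them for 289. High-fiber library 1 was the highest for 7 members (24.3% of all tested genes), control library 1 for 1 (24.8%) and control library 2 for 2 (22.5%). Control library 1 was the lowest for 31 (22.8% of all). Set against the control mean on the log2(CPM + 0.5) scale, the median member stood at 0.15 in high-fiber library 1 and at 0.50 in high-fiber library 2, with the control libraries at -0.07 and 0.07. The distance between the high-fiber mice was thus larger than that of the nearer one from the controls. Without high-fiber library 2 the median log2 fold change was 0.15, without high-fiber library 1 it was 0.52, and without control library 1 it was 0.21. The number of positive members was 35 to 39 in the fits with a library left out.

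**Figure D2:**
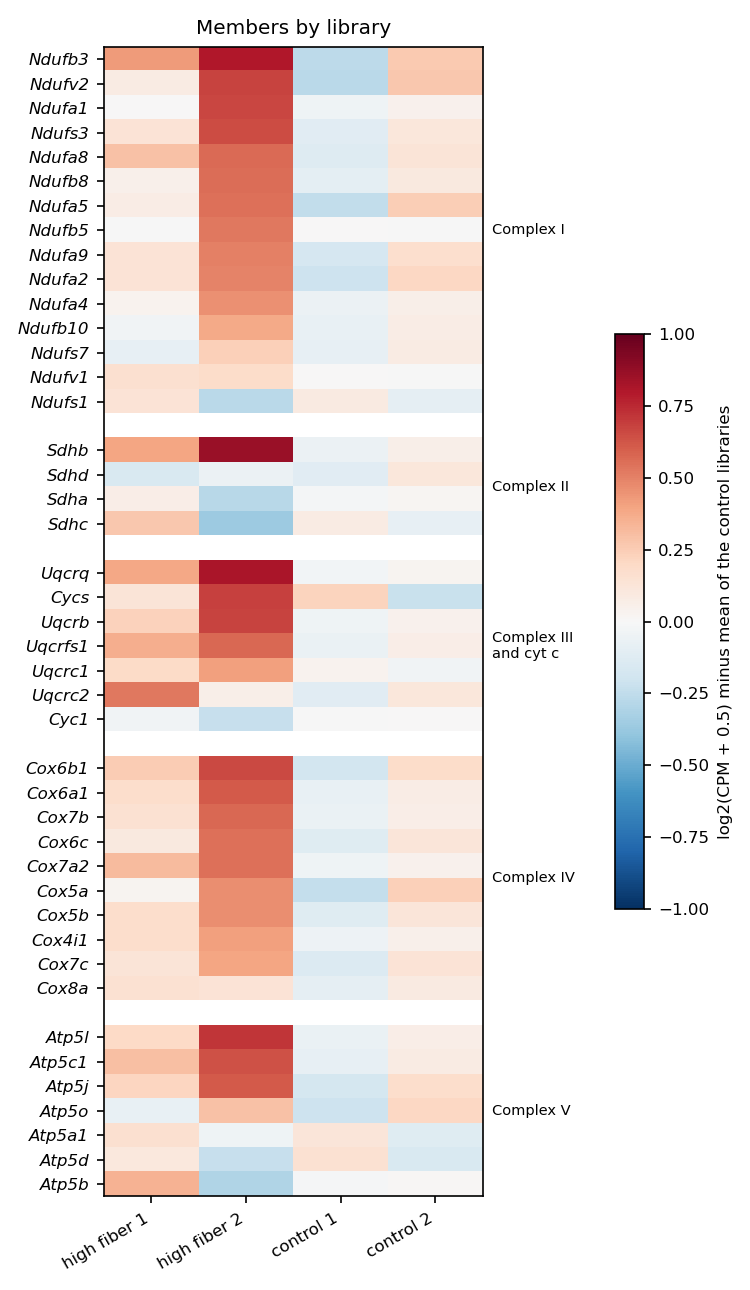
Each row is a gene and each column a library, with colour giving log2(CPM + 0.5) minus the mean of the control libraries. High-fiber library 2 holds the darkest red in most rows, while Sdha, Sdhc, Ndufs1 and Atp5b are blue there.

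Exon length moved with this pattern in high-fiber library 2. Over all tested genes, those under 700 bases had a median of 0.28 in that library against the control mean, those of 700 to under 1000 bases 0.34, those of 1000 to under 1500 bases 0.21, those of 1500 to under 2500 bases -0.061 and those of 2500 bases or more -0.13. In high-fiber library 1 the same classes lay between -0.016 and 0.046. Control library 2 ran from 0.10 in the shortest class to -0.039 in the longest. Control library 1, set against the same control mean, mirrored it. The members are mostly short, and in high-fiber library 2 their medians were 0.58, 0.44, 0.56, 0.46 and -0.27 in these classes, which held 10, 8, 10, 10 and 5 members. Across the 43 members, which share their libraries, Spearman's rho between exon length and this difference was -0.34 in high-fiber library 2 and 0.087 in high-fiber library 1. Over tested genes with a known length, rho was -0.10 and 0.019 in those libraries. With a length trend removed from each library, an alternative chosen after seeing the data, the median log2 fold change of the members was 0.19 and 35 were positive. The part of length in the members' difference was not tested beyond this fit.

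**Figure D3:**
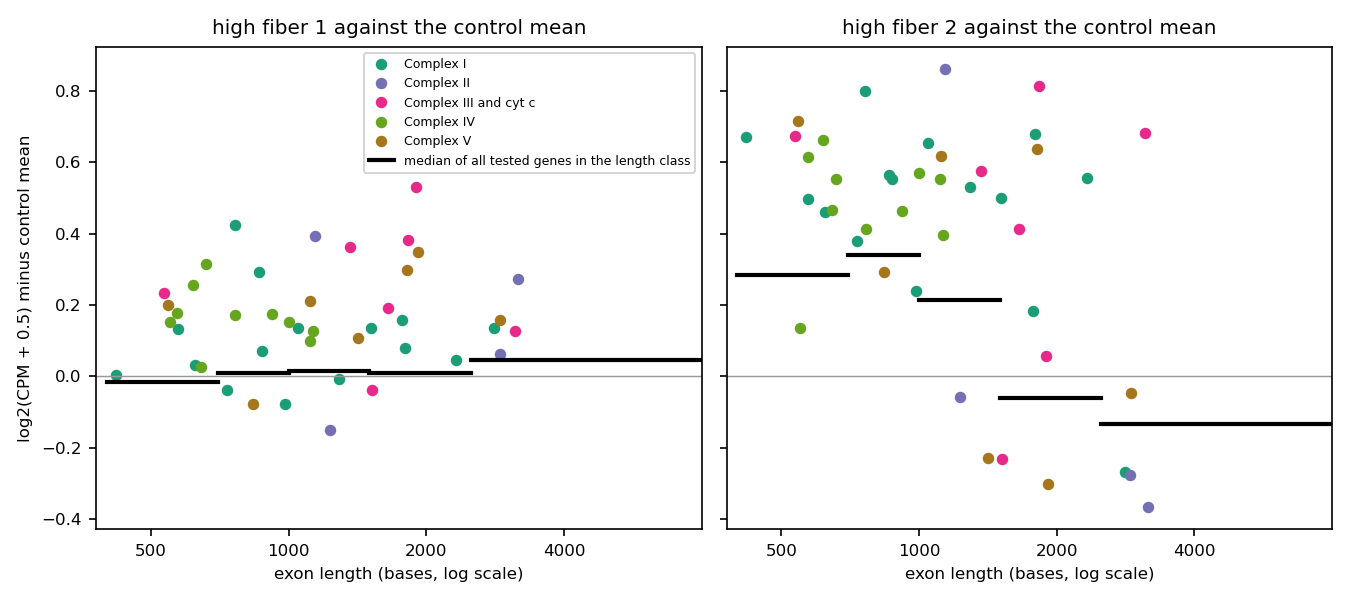
Difference of each high-fiber library from the control mean, as log2(CPM + 0.5), against exon length (log axis), with 1 point per member coloured by complex. Black bars give the median of all tested genes per length class; they run from 0.28 for the shortest class to -0.13 for the longest in high-fiber library 2 and stay between -0.016 and 0.046 in high-fiber library 1.

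Complex I, the NADH dehydrogenase, had 14 of 15 members positive, with a median log2 fold change of 0.32, and 0 passed by edgeR, DESeq2 or at an unadjusted p under 0.05. The median was 0.058 without high-fiber library 2, 0.56 without high-fiber library 1, 0.18 without control library 1 and 0.18 with the length trend removed. In the NADH-binding module, Ndufv1, which binds the flavin that accepts electrons from NADH, had 222 and 226 CPM on the high-fiber diet, against 199.96 and 198 CPM on the control diet. These groups did not overlap, yet the log2 fold change was only 0.17 ± 0.21 (SE) with a 95% interval of -0.32 to 0.66. Its iron-sulfur partner Ndufv2 stood at 147 and 222 CPM on the high-fiber diet, against 115 and 167 CPM on the control diet. Here the groups overlapped, since control library 2 lay above high-fiber library 1. Ndufs1, the largest iron-sulfur subunit, was the only member of the complex with a negative value (-0.051 ± 0.25), at 134 and 101 CPM in the high-fiber libraries and 129.6 and 114 CPM in the control libraries.

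In the arm that hands electrons to ubiquinone, Ndufs3 stood at 69.7 and 100.02 CPM on the high-fiber diet, against 58.4 and 68.8 CPM on the control diet. Its groups did not overlap, by a margin of less than 1 CPM, and the log2 fold change was 0.41 ± 0.29 (edgeR adjusted p = 0.773). Ndufs7, which holds the last iron-sulfur cluster of the chain, was at 142 and 177 CPM in the high-fiber libraries and 142 and 159 CPM in the control libraries, with overlapping groups and a log2 fold change of 0.086 ± 0.24. Among the accessory subunits, which do not carry electrons, Ndufb3 of the membrane arm had the highest log2 fold change of the complex (0.61 ± 0.34, edgeR adjusted p = 0.687). It was at 48.3 and 62.7 CPM on the high-fiber diet, against 29.9 and 43.1 CPM on the control diet, so every high-fiber value lay above every control value, but the controls differed from each other by more than the gap between the groups. Ndufa8 (0.44) also had groups that did not overlap, at the lowest level of the complex. The other 8 accessory members overlapped between diets: log2 fold changes were 0.37 for Ndufa1, 0.32 for Ndufa9, 0.32 for Ndufb8, 0.32 for Ndufa5, 0.31 for Ndufa2, 0.28 for Ndufb5, 0.26 for Ndufa4, a subunit since reassigned to complex IV, and 0.18 for Ndufb10. In 14 of the 15 genes high-fiber library 2 was the highest.

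Complex II, succinate dehydrogenase, also works in the citric acid cycle and has no mitochondrially encoded part. Sdhb had the highest estimate of all 43 members and the other 3 were negative, with a median over the 4 of -0.052. Their intervals overlap, and the difference between them was not tested. Sdhb, the iron-sulfur subunit, had 291 and 402 CPM on the high-fiber diet, against 213 and 229.8 CPM on the control diet. Both high-fiber values were above both control values, and the log2 fold change was 0.64 ± 0.24 with an interval of 0.067 to 1.22 (unadjusted p = 0.0337, edgeR adjusted p = 0.509). Sdha, the flavoprotein that oxidizes succinate, had 364 and 288 CPM in the high-fiber libraries and 344 and 353 CPM in the control libraries, with the lowest value in high-fiber library 2 and a log2 fold change of -0.095 ± 0.22. Sdhc, a membrane anchor, was at 145 and 92.9 CPM on the high-fiber diet, against 127 and 113 CPM on the control diet. High-fiber library 1 was its highest value and high-fiber library 2 its lowest, and its log2 fold change of -0.0083 ± 0.29 turned positive with RLE scaling (0.0066). Sdhd, the other anchor, stood at 4.16 and 4.47 CPM in the high-fiber libraries and 4.27 and 5.10 CPM in the control libraries, with an interval of -1.76 to 1.55 that spans a 2-fold change in either direction. The median of the complex was 0.16 without high-fiber library 2, -0.14 without high-fiber library 1, -0.021 without control library 1 and 0.010 with the length trend removed.

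In complex III and cytochrome c, 6 of 7 members were positive with a median of 0.37, and 4 had high-fiber values above all control values (18.5% of all tested genes). The median was 0.60 without high-fiber library 1 and 0.23 without high-fiber library 2. Uqcrc1, a core subunit, was at 752 and 877 CPM on the high-fiber diet, against 675 and 642 CPM on the control diet. Its groups did not overlap, and the log2 fold change was 0.31 ± 0.20. The other core subunit, Uqcrc2, had 183 and 132 CPM in the high-fiber libraries and 118 and 137 CPM in the control libraries, where only high-fiber library 1 stood clear of the rest. Uqcrfs1, the Rieske iron-sulfur protein, was at 202 and 235 CPM on the high-fiber diet, against 149.9 and 165 CPM on the control diet, with groups that did not overlap and a log2 fold change of 0.47 ± 0.22 (edgeR adjusted p = 0.633). Uqcrq, a small subunit without redox centers, was at 197 and 266 CPM on the high-fiber diet, against 148 and 154 CPM on the control diet. The control mice were nearly alike and both high-fiber mice were higher, and the log2 fold change was 0.61 ± 0.24 with an interval of 0.036 to 1.19 (unadjusted p = 0.0405, edgeR adjusted p = 0.534). The small subunit Uqcrb, which has near-identical pseudogenes, had a log2 fold change of 0.47 ± 0.32. Cyc1, the cytochrome c1 that reduces cytochrome c, was at 201 and 175 CPM in the high-fiber libraries and 205 and 206 CPM in the control libraries. It was the 1 member whose high-fiber values both lay below the controls, with a log2 fold change of -0.13 ± 0.21 (edgeR adjusted p = 0.919). Cycs, cytochrome c itself, which also starts the caspase cascade when it leaves mitochondria, was at 9.66 and 14.4 CPM on the high-fiber diet, against 10.4 and 7.48 CPM on the control diet, an overlap at low level with an interval of -0.97 to 1.72.

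Complex IV, cytochrome c oxidase, was the complex with all members positive, 10 of 10, from 0.14 for Cox8a to 0.46 for Cox6b1, and a median of 0.33. In 7 of the 10 both high-fiber values lay above both control values (18.5% of all tested genes), and 0 passed by edgeR, DESeq2 or at an unadjusted p under 0.05. The nuclear members surround a core of mitochondrially encoded subunits. Cox4i1, the largest of them, had 558 and 659 CPM on the high-fiber diet, against 479 and 511 CPM on the control diet, with groups that did not overlap and a log2 fold change of 0.30 ± 0.21. Cox5a was at 147 and 199 CPM in the high-fiber libraries and 122 and 171 CPM in the control libraries, where control library 2 exceeded high-fiber library 1. Cox5b was at 65.6 and 80.1 CPM on the high-fiber diet, against 53.4 and 63.0 CPM on the control diet, a gap between the groups of less than 3 CPM. Cox6b1, which faces the intermembrane space, was at 286 and 379 CPM in the high-fiber libraries and 211 and 272 CPM in the control libraries, with a log2 fold change of 0.46 ± 0.25 and an interval of -0.14 to 1.06. Cox8a had nearly the same value in both high-fiber mice, at 206 and 203 CPM on the high-fiber diet, against 173 and 198 CPM on the control diet, and its log2 fold change turned negative with the length trend removed (-0.026). The others had log2 fold changes of 0.45 for Cox7a2, 0.41 for Cox6a1, 0.37 for Cox7b, 0.34 for Cox6c and 0.28 for Cox7c. The median of the complex was 0.16 without high-fiber library 2, 0.54 without high-fiber library 1 and 0.19 with the length trend removed.

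Several of these subunits have isoforms made mainly in heart, skeletal muscle, testis or other single tissues. These were absent or nearly so: Cox6a2, Cox8b, Cox8c, Cox7b2, Cyct and Ndufa4l2 had 0 counts in every library, and each 0 allows up to 3 counts. Cox4i2, the lung isoform of Cox4i1, had 4 and 21 counts in the high-fiber libraries, against 0 and 12 in the control libraries, with a log2 fold change of 1.10 ± 1.81. Cox7a1 had 15 and 8 against 7 and 8 counts, and Cox6b2 had 7 and 0 against 0 and 6. The Cox7a2-like gene Cox7a2l, listed with these isoforms but not kept to a single tissue, had 1393 and 1521 against 1653 and 1209 counts. Its log2 fold change was 0.12 ± 0.32. Of the genes on this list, Cox4i2 and Cox7a2l were tested, and 0 passed by edgeR (0 at an unadjusted p under 0.05) or DESeq2. ILC2s of both diets thus carried the widely expressed isoforms, as far as transcripts show.

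Complex V, the ATP synthase, held 6 of 7 positive members with a median of 0.11, and 0 passed by edgeR (0 at an unadjusted p under 0.05) or DESeq2. The median was larger in each fit that left out a library, at 0.18 without control library 1, 0.32 without control library 2, 0.31 without high-fiber library 1 and 0.20 without high-fiber library 2, and it was 0.058 without scaling factors. The alpha and beta subunits, which form its catalytic head, had log2 fold changes near 0 with overlapping groups. Atp5b, the beta subunit that makes ATP, had 1842 and 1175 CPM on the high-fiber diet, against 1436 and 1459 CPM on the control diet. High-fiber library 1 was the highest and high-fiber library 2 the lowest of the 4, and the log2 fold change was 0.060 ± 0.27. Atp5a1, the alpha subunit, was at 1079.7 and 937 CPM in the high-fiber libraries and 1054 and 889 CPM in the control libraries, an overlap with an interval of -0.46 to 0.57. Atp5c1, the gamma subunit that turns inside the head, was at 402 and 508 CPM on the high-fiber diet, against 309 and 345 CPM on the control diet. Its groups did not overlap, and its log2 fold change was 0.48 ± 0.22 (edgeR adjusted p = 0.633). Atp5d, the delta subunit of the central stalk, was at 135 and 107 CPM in the high-fiber libraries and 139 and 113 CPM in the control libraries, where both libraries numbered 1 lay above both numbered 2. In the peripheral stalk, Atp5o was at 204 and 264 CPM on the high-fiber diet, against 187 and 248 CPM on the control diet, with a log2 fold change of 0.11 ± 0.25, and Atp5j stood at 0.42 with groups that did not overlap. Atp5l of the membrane part, at 0.48 the highest of the complex, rests on 8.28 to 14.6 CPM and has 9 near-identical copies.

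**Figure D4:**
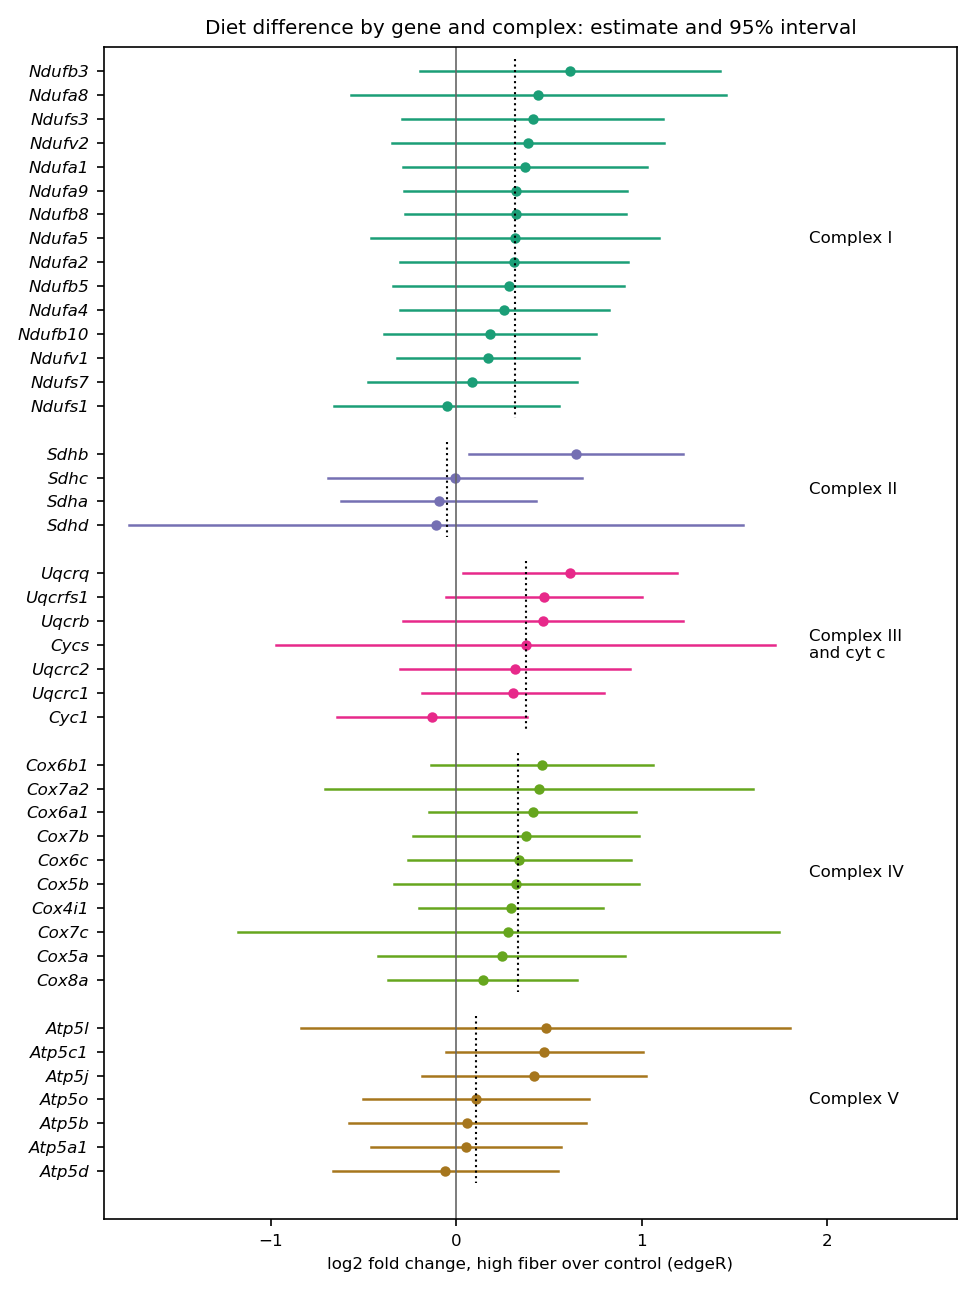
Estimated log2 fold change of each gene, high fiber over control, with its 95% interval from edgeR and a dotted line at the median of each complex. Most estimates lie right of 0, and the intervals of all but Sdhb and Uqcrq include 0.

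Summed over their members, which weights the abundant genes, complex I stood at 2309 and 3038 CPM on the high-fiber diet, against 2075 and 2353 CPM on the control diet. Complex II summed to 804 and 787 against 687 and 702 CPM, complex III with cytochrome c to 1589 and 1759 against 1342 and 1351 CPM, and complex IV to 2036 and 2565 against 1693 and 1949 CPM. The sum for complex V was 3909 and 3317 against 3314 and 3293 CPM. High-fiber values were above both controls in complexes II, III, IV and V and overlapped in complex I. In complex V high-fiber library 2 was within 4 CPM of control library 1. Single genes lay this way for 18.5% of all tested genes. In complex II the sum was higher through Sdhb alone (mean 346 against 221 CPM), while Sdha, Sdhc and Sdhd had lower means on the high-fiber diet. Atp5b, the most abundant gene of complex V, had 1842 and 1175 against 1436 and 1459 CPM. The mean sum on the high-fiber diet was 1.21 times that on the control diet for complex I, 1.15 for II, 1.24 for III, 1.26 for IV and 1.09 for V.

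Mitochondrially encoded subunits behaved otherwise in high-fiber library 1. Their summed level was 5210 and 8312 CPM on the high-fiber diet, against 5879 and 5851 CPM on the control diet, so the high-fiber mice lay on either side of the controls. The ratio of the nuclear members to these transcripts was 2.04 and 1.38 against 1.55 and 1.65. Of 8 tested mitochondrial genes 7 were positive and 0 passed by edgeR (0 at an unadjusted p under 0.05) or DESeq2. Log2 fold changes were 0.26 for mt-Nd1, 0.14 for mt-Nd2, 0.021 for mt-Nd4, 0.14 for mt-Nd5, 0.27 for mt-Nd6, 0.25 for mt-Cytb, 0.17 for mt-Co1 and -0.29 for mt-Co3. The sums rest on part of the mitochondrial genome. mt-Co2, mt-Co3, mt-Atp6, mt-Atp8, mt-Nd3 and mt-Nd4l held 0 to 22 counts per library, while mt-Co1 held 40336 to 54547. Apart from mt-Atp8, each of these low genes has a transcript outside the mitochondrial genome that matches at least 99.0% of its length at 99.7% identity or more. The high genes mt-Nd2, mt-Nd4, mt-Nd5 and mt-Co1 have matches too. Their best ones cover 31.3% to 63.6% of the gene at 95.2% identity or more. Whether such copies changed the counts or the ratios was not tested.

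**Figure D5:**
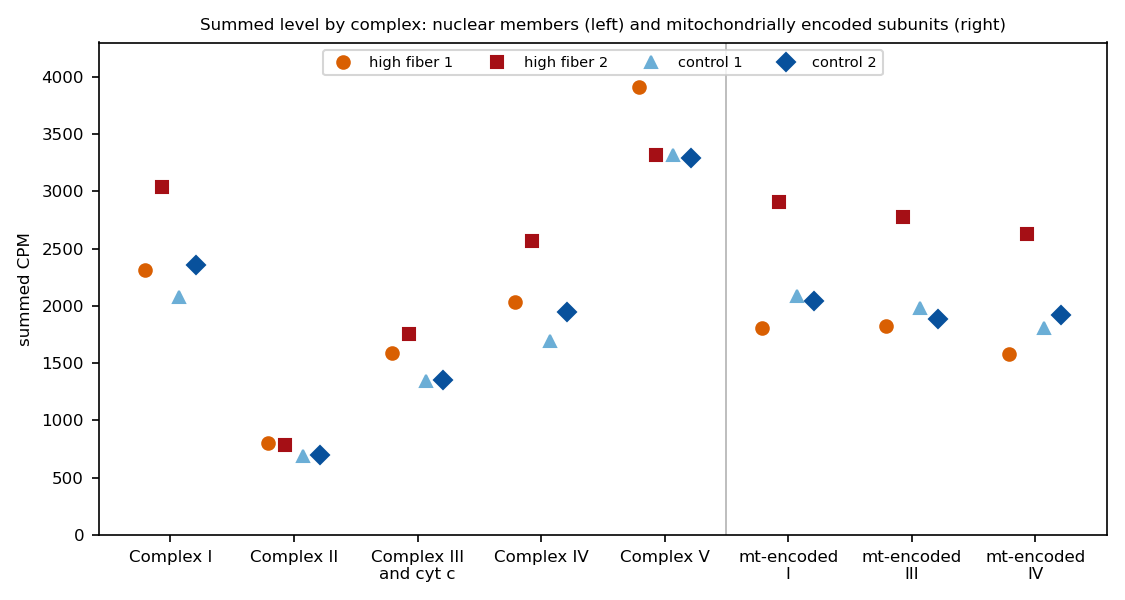
Summed CPM per library for the nuclear members of each complex (left of the line) and for the mitochondrially encoded subunits of complexes I, III and IV (right). High-fiber library 2 is highest for complexes I, III and IV in both genomes, while high-fiber library 1 is highest for complex V and lowest for the mitochondrial subunits.

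Other genes of the pathway were taken from lists by function. The 34 tested further nuclear subunits of complexes I, III and V had a median log2 fold change of 0.30 with 31 positive, and 0 passed by edgeR or DESeq2 (1 at an unadjusted p under 0.05, Ndufa11). Ndufa11, an accessory subunit of complex I, was at 116 and 123 CPM on the high-fiber diet, against 78.4 and 79.3 CPM on the control diet, with groups that did not overlap and a log2 fold change of 0.60 ± 0.23 (edgeR adjusted p = 0.533). Uqcr10 of complex III had a log2 fold change of 0.38 ± 0.24. Atpif1, which blocks ATP synthase when it would run backwards, was at 88.0 and 119.6 CPM in the high-fiber libraries and 47.5 and 75.7 CPM in the control libraries, with a log2 fold change of 0.76 ± 0.33 (edgeR adjusted p = 0.590). Assembly factors, which build the complexes but are not part of them, had a median of 0.098 with 26 of 43 tested positive, and 0 passed by edgeR (0 at an unadjusted p under 0.05) or DESeq2. By smallest p in each complex they were led by Ndufaf7 (0.72), Sdhaf1 (0.25), Ttc19 (1.17), the copper chaperone Cox17 (0.58) and Atpaf1 (-0.89), and all 3 tested factors of complex V were negative.

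Citric acid cycle genes had a median of 0.16 with 10 of 13 positive and 0 called by edgeR (0 at an unadjusted p under 0.05) or DESeq2. Mdh2, the mitochondrial malate dehydrogenase, was at 879 and 1165 CPM on the high-fiber diet, against 714 and 776 CPM on the control diet, with groups that did not overlap (0.46 ± 0.23). Carriers and channels had a median of 0.31 with 5 of 7 positive and 0 called by edgeR (0 at an unadjusted p under 0.05) or DESeq2. By smallest p they were led by the ADP/ATP carrier Slc25a5 (0.33), while the highest log2 fold change of the list was 0.41. Other enzymes that feed ubiquinone, with the genes that make it, had a median of 0.030 with 8 of 14 positive and 0 called by edgeR or DESeq2 (1 lower at an unadjusted p under 0.05). That gene was Dhodh, of pyrimidine synthesis, at 38.8 and 29.8 CPM on the high-fiber diet, against 70.3 and 52.7 CPM on the control diet, with a log2 fold change of -0.84 ± 0.32 (edgeR adjusted p = 0.524).

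Regulators of mitochondrial biogenesis had a median of -0.15, with 5 of 13 tested positive and 0 called by edgeR or DESeq2 (1 lower at an unadjusted p under 0.05). Their log2 fold changes ran from -1.12 to 1.52, and the genes named below are all from the negative side. Myc, a transcription factor of growth that raises ribosomal and mitochondrial genes in many cells, was at 385 and 350.3 CPM on the high-fiber diet, against 533 and 543 CPM on the control diet. Both high-fiber values lay below both control values, and the log2 fold change was -0.55 ± 0.20 (unadjusted p = 0.0300, edgeR adjusted p = 0.499). Nrf1, whose motif letters are shown above, was at 54.2 and 47.7 CPM in the high-fiber libraries and 92.5 and 60.1 CPM in the control libraries, also without overlap, with a log2 fold change of -0.59 ± 0.31. The coactivator gene Ppargc1a had 0 counts in all libraries, which allows up to 3 counts each, and log2 fold changes were -0.16 for Gabpa and -0.14 for Tfam, the factor that transcribes and packs mitochondrial DNA. Mitochondrial ribosomal protein genes, which make the mitochondrially encoded subunits, had a median of 0.071 with 48 of 78 positive and 0 called by edgeR or DESeq2 (unadjusted p was under 0.05 for 1 higher and 1 lower gene).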

How the data were processed

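The authors deposited raw read counts per NCBI gene identifier for 4 libraries, not normalized, with 0 value columns lacking a sample. Per the submitters' processing notes, CASAVA 1.8.2, STAR 2.3.0 and the mm10 build were used; their roles are not stated. Which program counted reads, and with what strand setting, was not given in the sources used here. Symbols came from RefSeq (GRCm38.p6), which matched 25275 of 27179 identifiers; identifiers without a symbol held 0.212% to 0.248% of the counts. Exon lengths are unions of exons in GENCODE M21 (GRCm38) and were found for all 43 members and 92.8% of tested genes. They need not equal the gene models used for counting.

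The counts were tested in R 4.3.3 with edgeR 4.0.16: filterByExpr kept 11841 of 15425 genes with any count, TMM scaling, a design of intercept and diet, glmQLFit (legacy=FALSE, robust off), glmQLFTest and Benjamini-Hochberg adjustment at 0.05. Residual degrees of freedom were 2, and the common biological coefficient of variation was 0.607. Each SE is the size of the log2 fold change divided by the root of its F statistic. P-values measure the spread between these mice only, and counting error of PCR copies is not that of molecules. DESeq2 1.42.0, limma-voom (limma 3.58.1) and other settings were alternatives.

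Values are given for core subunits, for the highest and lowest log2 fold change of each complex, for members at an unadjusted p under 0.05, for the smallest p of each further list and for mitochondrial and isoform genes. Further examples were picked with their values in view. The members and lists were chosen with earlier results of these data known, and the promoter motifs and length classes after seeing the data.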

Additional observations from a re-analysis of the deposited data

How the results depend on the processing

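Among the members 0 genes were called under any of the 15 alternatives run. Counts over all genes were less stable: 4 genes were called higher and 0 lower by edgeR, against 0 higher without a filter on low counts, with limma-voom, with the legacy fit or with a replicate block, 8 higher and 1 lower with a filter of 5 CPM in 2 libraries, 158 higher and 78 lower with DESeq2, and 0 to 1 higher with a library left out. Over all tested genes, same-numbered libraries did not deviate together (correlation of deviations 0.041), so their numbers were not taken as pairs. The replicate block changed no other call. No correlation was computed over the members alone. For them, high-fiber library 2 was the highest of the 4 for 33 of 43 and the lowest for 6. Control library 1 was the lowest for 31 and the highest for 1. Both libraries numbered 1 also held more counts in total than both numbered 2. A pattern by number among the members was not tested. Members higher at an unadjusted p under 0.05 numbered 1 without scaling factors and 0 to 12 with a library left out. Leaving out a library moved the median log2 fold change of all members between 0.15 and 0.52, of complex II (0.010 with the length trend removed) between -0.14 and 0.16, of complex III with cytochrome c between 0.23 and 0.60, of complex I between 0.058 and 0.56, of complex IV between 0.16 and 0.54 and of complex V between 0.18 and 0.32, above its 0.11 in each of the 4 fits. Signs turned for members near 0: Sdhc with RLE (0.0066), DESeq2 (0.00078) and the length trend removed (0.048), and with the latter Ndufs1 (0.015), Ndufs7 (-0.061), Cox8a (-0.026) and Atp5o (-0.053). With a library left out, log2 fold changes ran from -0.25 to 0.13 for Ndufs1, -0.084 to 0.27 for Ndufs7, -0.25 to 0.058 for Sdha, -0.35 to 0.26 for Sdhc, -0.25 to 0.0050 for Sdhd, -0.066 to 0.18 for Atp5a1, -0.28 to 0.34 for Atp5b, -0.095 to 0.32 for Atp5o and -0.22 to 0.10 for Atp5d. The cause was not tested. A lone library of a diet is assumed to vary like the other group. Removing the length trend was chosen after seeing the data. Low counts limit Sdhd, Cycs, Cox7c, Cox7a2 and Atp5l, whose intervals span a 2-fold change.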

Other observations

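Cytosolic ribosomal protein genes are usually among the most abundant transcripts of a lymphocyte. Genes whose symbol starts with Rpl or Rps and a digit held 0.619% and 0.669% of all counts in the high-fiber libraries, against 0.644% and 0.704% in the control libraries. This match by name can also take in genes that are not ribosomal proteins. Many ribosomal protein genes have near-identical pseudogenes, as do several low members of the oxidative phosphorylation list. How such reads were counted is not given in the sources used here.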
